A study of Mus musculus with 12 samples.

Results

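The genes described here are 39 markers of vascular endothelium, the cell layer that lines every blood vessel. They were chosen by name and matched to the deposited transcript table by Ensembl identifier. All 39 were found, as 71 transcripts, and the values of a gene's transcripts were summed, so they are 39 of the 13465 genes of the table. RNA was sequenced from mouse renal cortex in 4 groups of 3 libraries each. WT sham and CKO sham were the wild-type and knockout groups after sham treatment. WT IRI and CKO IRI were the same genotypes after ischemia-reperfusion injury (IRI), which was 30 min without blood flow to both kidneys and then 48 h of restored flow. In CKO mice Gpx3, which encodes a secreted, plasma-type glutathione peroxidase, was deleted in renal tubular epithelial cells. The driver of the deletion, the strain and the age of the mice are not given in the sources used here. The sources do not say whether a library is 1 mouse, so every p-value refers to the scatter among libraries, which may be technical.

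Renal endothelium is not uniform. Glomerular capillaries filter blood through open pores called fenestrae, peritubular capillaries take up what the tubules reabsorb through fenestrae that carry a diaphragm, and arteries and arterioles regulate flow. Endothelial cells depend on vascular endothelial growth factor (VEGF), made in the kidney largely by epithelial cells and read by Kdr and Flt1, and on angiopoietins, read by Tek. Transcription factors of the ETS and SOXF families maintain endothelial identity, and loss of peritubular capillaries after ischemia is a known feature of kidney injury. Igfbp3, Igfbp5, Fli1, Icam2, Eng, S1pr1, Thbd, Flt1 and Robo4 are also expressed by cells other than endothelium.

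Values are in FPKM (fragments scaled to transcript length and to the mapped total), and library sums lay between 391002 and 422328 FPKM. Read depth is unknown. Gpx3 measured 4476 to 5664 FPKM in the WT sham group and 2501 to 3299 FPKM in CKO sham, but 1075 to 3568 FPKM in the libraries labelled WT IRI and 2779 to 3723 FPKM in those labelled CKO IRI. Gpx3 thus goes with the genotype labels in sham and not after IRI, so genotype after IRI is given below as the labels have it. All 13 proximal tubule markers summed to 10077 to 12062 FPKM in sham and 2404 to 8680 FPKM after IRI, and 9 tubular injury markers to 1236 to 1476 FPKM and 2847 to 7911 FPKM. All 8 kidney markers were present (2581 to 10454 FPKM per library), against 1 of 8 joint and cartilage genes (at most 1.63 FPKM), although joint capsule is the tissue named in the extraction protocol of the labels. For the members, CKO sham 1 and CKO IRI 7 stood apart, as described below, and results that rest on them are given with and without them.

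The promoters of the members that fell in both genotypes are shown first, because ETS and SOX factors are themselves among the members. RefSeq (GRCm38.p6) gave a window from 250 bases before to 50 bases after the gene start for 22 of the 39 members. That start lay 229 bases from the start of the most abundant transcript for Tek, 212 for Tie1, 145 for Calcrl and 103 for Erg. For the other members with a window it lay at most 74 bases away. The Tek window ends before the start of that transcript (94739518). Of the 5 genes that fell in both genotypes, Esm1, Tek, Kdr and Igfbp3 had a window and Cdh5 was not matched. Capitals mark the ETS-type motif CAGGAA and the SOX-type motif ACAAAG on either strand (TTCCTG is CAGGAA on the other strand). The sequences run 5′ to 3′ on the gene's strand, from chr13:113209409-113209708 (plus) for Esm1, chr4:94739039-94739338 (plus) for Tek, chr5:75978406-75978705 (minus) for Kdr and chr11:7213874-7214173 (minus) for Igfbp3.
Esm1: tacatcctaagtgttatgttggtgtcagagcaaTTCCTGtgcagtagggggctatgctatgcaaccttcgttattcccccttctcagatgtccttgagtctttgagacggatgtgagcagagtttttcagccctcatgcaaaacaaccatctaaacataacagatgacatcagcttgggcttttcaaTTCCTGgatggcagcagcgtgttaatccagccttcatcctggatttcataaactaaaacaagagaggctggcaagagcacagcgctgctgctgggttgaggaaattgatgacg
Tek: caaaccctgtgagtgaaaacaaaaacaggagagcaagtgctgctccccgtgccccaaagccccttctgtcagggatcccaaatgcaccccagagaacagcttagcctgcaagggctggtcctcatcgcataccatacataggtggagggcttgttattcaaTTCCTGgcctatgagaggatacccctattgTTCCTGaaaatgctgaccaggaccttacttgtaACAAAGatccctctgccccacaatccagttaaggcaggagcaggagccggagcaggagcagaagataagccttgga
Kdr: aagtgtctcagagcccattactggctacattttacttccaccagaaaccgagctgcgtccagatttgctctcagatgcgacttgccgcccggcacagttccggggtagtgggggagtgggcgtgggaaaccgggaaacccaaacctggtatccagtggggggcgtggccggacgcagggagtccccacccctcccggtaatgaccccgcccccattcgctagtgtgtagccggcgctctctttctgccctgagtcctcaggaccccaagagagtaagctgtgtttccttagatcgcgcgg
Igfbp3: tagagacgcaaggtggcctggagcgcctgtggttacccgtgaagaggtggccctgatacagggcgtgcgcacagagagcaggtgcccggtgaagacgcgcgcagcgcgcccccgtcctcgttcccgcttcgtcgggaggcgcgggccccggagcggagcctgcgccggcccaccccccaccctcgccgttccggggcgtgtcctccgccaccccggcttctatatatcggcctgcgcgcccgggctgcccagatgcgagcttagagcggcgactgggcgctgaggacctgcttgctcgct

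Esm1 and Tek each held 2 copies of CAGGAA, and Tek 1 copy of ACAAAG, while neither motif, nor CGGAAG or ACAATG, was spelled out in the Kdr and Igfbp3 windows. CAGGAA was found in 14 of the 22 member windows, against 30.6% of the 32851 RefSeq promoter windows. It was in 8 of the 14 windows of members that fell after IRI in the average of both genotypes. Among members that did not pass there, Adgrf5, Calcrl, Egfl7, Eng, Notch4 and Rasip1 held it, and Cldn5 and Ramp3 did not. The motif was thus no more frequent in members that fell than in the 22 windows together. CGGAAG, the other ETS-type motif searched, was in 2 of 22 (16.9% of all windows), and at least 1 of these ETS-type motifs was in 15 (42.8%). The SOX-type motifs ACAATG and ACAAAG were in 3 and 2 of 22 (12.6% and 18.7%). Both strands were searched, and the motifs do not overlap one another in the windows printed. A match describes the letters only and is not evidence of a bound site. The other members with a window were Adgrf5, Adgrl4, Calcrl, Cldn5, Clec14a, Dll4, Egfl7, Ehd3, Emcn, Eng, Erg, Flt1, Igfbp5, Notch4, Ramp3, Rasip1, Robo4 and Tie1.

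In sham cortex the members spanned a wide range of levels per transcript length. Plvap had the highest median over the 6 sham libraries (93.6 FPKM), followed by Igfbp5 (74.4 FPKM), Igfbp3 (69.4 FPKM), Eng (35.6 FPKM) and Emcn (28.99 FPKM). The Igfbp5 and Igfbp3 ranges overlapped (70.0 to 79.3 FPKM and 60.1 to 85.1 FPKM), whereas the lowest Plvap library (87.2 FPKM) was above every Igfbp5 and Igfbp3 library. At the lower end stood Fli1 (2.05 FPKM), Sox7 (1.21 FPKM), Erg (1.08 FPKM) and Vwf (0.246 FPKM). The order differed after IRI. Esm1 went from rank 9 of 39 to 27, Kdr from 15 to 25 and Pecam1 from 6 to 10, while Cldn5 went from rank 21 to 9 and Sox17 from 29 to 16. Plvap kept rank 1, with a median of 52.7 FPKM over the 6 IRI libraries.

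Most endothelial markers were lower 48 h after ischemia, and none of those tested was higher in the average of both genotypes. Of the 38 members tested (Vwf was too low), 22 fell and 0 rose by limma at an adjusted p under 0.05, where 11.8% of the 12469 genes tested fell and 25.6% rose. No member was higher at an unadjusted p under 0.05 either, and 24 were lower, where 5919 of all genes had such a p in either direction. The median change of the members was -0.59 on the log2(FPKM + 1) scale, on which all changes below are given, and that of all genes tested was 0.10. All 6 IRI libraries lay below all 6 sham libraries for Pecam1, Cdh5, Icam2, Kdr, Tek, Adgrl4, Plvap, Clec14a, Esm1, Igfbp3 and Igfbp5, which is 11 of 38 members where 4.11% of genes did so. No member had all 6 IRI libraries above all 6 sham libraries, where 12.7% of genes did. In whole tissue, fewer endothelial cells and less of an RNA per cell cannot be told apart. Scaling the libraries to a common distribution moved the median of all genes to -0.03 (quantile) or -0.01 (TMM), that of the members to -0.72 or -0.69, and the number that fell to 26 or 25. Over all genes, falls and rises numbered 1473 and 3196 as deposited, 2224 and 2184 after quantile normalization, and 2151 and 2258 after TMM scaling. In WT they numbered 1483 and 3125, 2172 and 2205, and 2240 and 2224, and in CKO 185 and 711, 296 and 514, and 259 and 580.

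**Figure D1:**
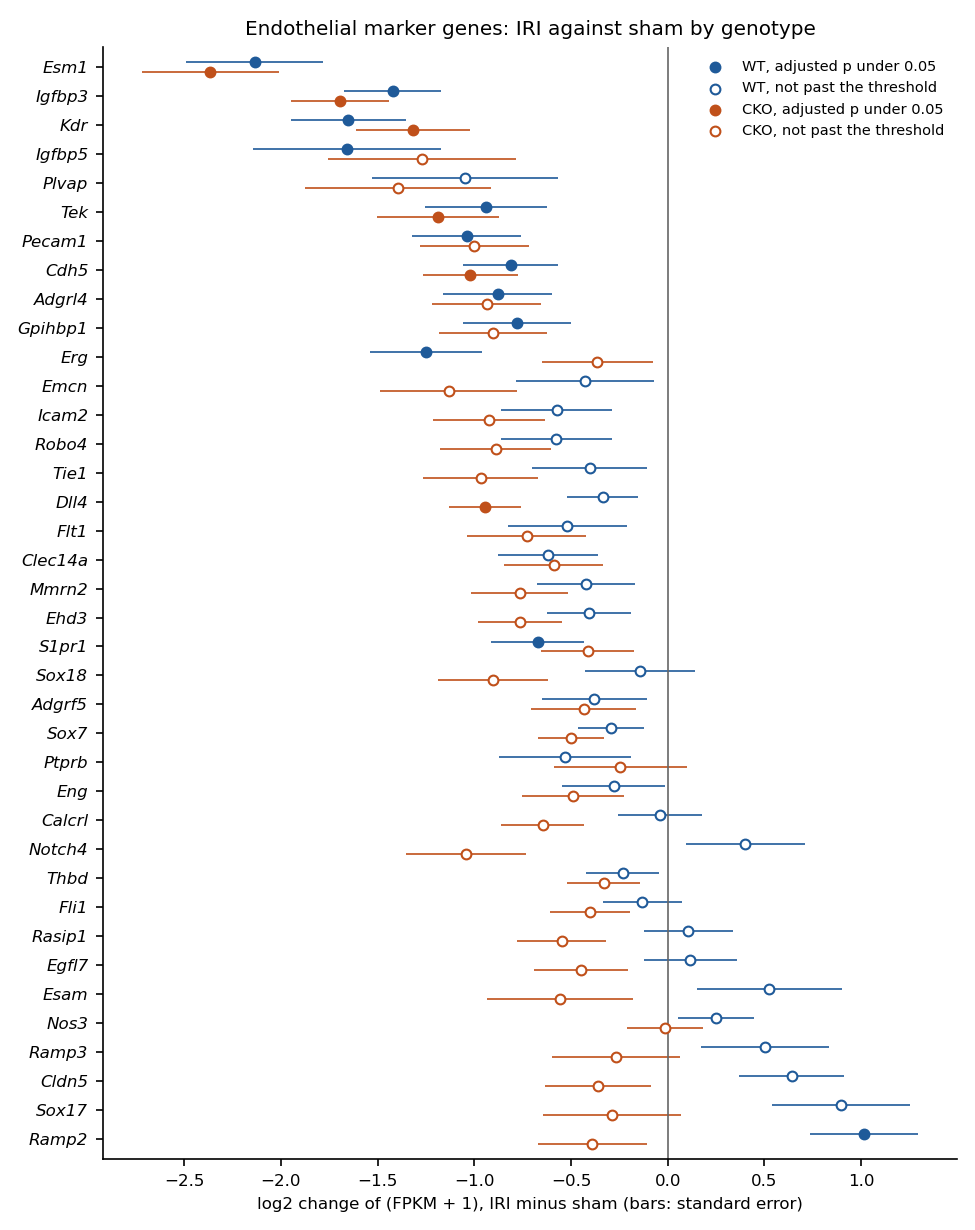
Log2 change of (FPKM + 1), IRI minus sham, with its standard error, for the 38 tested endothelial markers in WT (blue) and CKO (orange); filled points passed an adjusted p under 0.05. Most points lie left of 0 in both genotypes, Esm1 lies farthest left at -2.14 and -2.36, and Ramp2 in WT is the filled point at 1.01.

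Within genotypes fewer members passed. In WT 11 of 38 fell (background 11.9% of genes) and Ramp2 rose (background 25.1%), with a median member change of -0.42 against 0.12 for all genes. WT IRI libraries lay below all WT sham libraries for 21 members (19.5% of genes) and above them for 3 (35.2%). In CKO 6 of 38 fell (background 1.48%) and 0 rose (5.7%), with a median of -0.75 against 0.08, and all 38 changes were negative. CKO IRI libraries lay below all CKO sham libraries for 22 members (10.1%) and above them for 0 (21.4%). By limma 24 CKO changes had an unadjusted p under 0.05, all of them lower, where 3000 of 12469 genes had one in either direction. These counts of 38 and 24 include CKO IRI 7, the lowest of the 12 libraries for 28 members, and were not made without it. Without it 2 members fell and the median was -0.46. Nos3 in CKO IRI 15 and 29 (2.95 and 3.01 FPKM) was above every CKO sham library (2.17 to 2.94 FPKM), so the shared direction depended on CKO IRI 7. Cdh5, Esm1, Igfbp3, Kdr and Tek fell in both genotypes. Adgrl4, Erg, Gpihbp1, Igfbp5, Pecam1 and S1pr1 passed in WT and Dll4 in CKO, but no member passed the test of the difference between genotypes.

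Which members passed within a genotype depended on single libraries. In WT the 11 falls became 4 on leaving out WT sham 3 or WT IRI 24, and 5 on leaving out either of the other WT sham libraries (1 or 2). They became 6 on leaving out WT IRI 13, and 6 when each gene was represented by its most abundant transcript. Esm1, Kdr and Igfbp3 passed in WT under every alternative and without each library, 14 settings in all. Erg passed in the 12 of these in which it was tested. It was too low for the filter of 5 FPKM and with its most abundant transcript alone. In CKO the 6 falls became 2 without CKO IRI 7, 3 without CKO IRI 29, CKO sham 1 or CKO sham 2, and 18 without CKO IRI 15. The share of all genes that fell moved too, from 1.48% to 0.58% without CKO IRI 7 and to 3.01% without CKO IRI 15. Esm1 and Igfbp3 passed in CKO throughout. Fitting the CKO groups alone gave 3, and limma's array weights, which gave the library labelled CKO IRI 7 a weight of 2.55 and those labelled CKO IRI 15 and 29 weights of 0.45 and 0.327, gave 29 (10.2% of all genes). The average of both genotypes held between 16 and 23 falls without each library in turn. There 15 of the 22 members passed without each library and under every alternative in which they were tested. Of the 19 settings, Erg was tested in 17 and Dll4 in 18, as both were too low for the rest. The others as follows, each with its highest adjusted p.

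Flt1 passed in the average without WT IRI 13 or CKO IRI 15 but lost its call without any other single library (0.0922) and with its most abundant transcript alone (0.0907). Emcn lost it without any of the WT sham libraries, CKO sham 1, WT IRI 24, CKO IRI 7 or CKO IRI 29 (0.0684). Tie1 lost it without WT sham 3, CKO sham 1 or WT IRI 24 (0.0574), and with its most abundant transcript alone (0.516). S1pr1 lost it without WT sham 1, WT sham 3, CKO IRI 7 or CKO IRI 29 (0.0648), Sox7 without WT sham 1, CKO sham 3 or WT IRI 13 (0.0608), Clec14a without WT sham 1 or WT IRI 24 (0.0555), and Mmrn2 without WT sham 1, CKO sham 1 or WT IRI 24 (0.0525). Within WT, the calls of Tek (0.125), Igfbp5 (0.0869), Cdh5 (0.0905), Adgrl4 (0.107) and Gpihbp1 (0.157) were lost without any of the WT sham libraries, WT IRI 13 or WT IRI 24. Pecam1 lost its WT call without WT sham 3 or WT IRI 24 (0.055) and with its most abundant transcript alone (0.12). Within CKO, Tek (0.128) and Cdh5 (0.0951) lost theirs without any CKO library but CKO IRI 15, and Kdr without any of the CKO sham libraries or CKO IRI 7 (0.083). Both Tek (0.123) and Cdh5 (0.0959) also lost the CKO call with the CKO groups fitted alone and with the most abundant transcript alone (0.0827 and 0.0525), and Tek with a pseudocount of 0.1 (0.0582). Adgrl4 (0.0579), Gpihbp1 (0.0769) and S1pr1 (0.0685) lost the WT call with the most abundant transcript alone, Gpihbp1 with the WT groups fitted alone (0.0604) and S1pr1 with no filter (0.0506). The direction of all these changes was the same throughout.

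The members of adhesion and cell junctions fell in 4 of 6 in the average of both genotypes, with a median change of -0.74. Pecam1, the adhesion molecule CD31 of endothelial junctions, measured 18.7, 19.4 and 20.7 FPKM in WT sham, 23.9, 20.1 and 19.2 in CKO sham, 8.36, 6.91 and 12.5 in WT IRI, and 5.76, 14.4 and 11.7 in CKO IRI. Every IRI library was below every sham library, and CKO IRI 7 was the lowest. The change was -1.04 (SE 0.28, adjusted p = 0.0155) in WT and -0.9995 (SE 0.28, adjusted p = 0.0564) in CKO, and -1.02 (adjusted p = 0.00291) in the average. Cdh5, the VE-cadherin that joins endothelial cells (chromosome 8, 104101625 to 104144511, plus strand, GRCm38), measured 10.6, 11.1 and 11.4 FPKM in the WT sham group and 15.8, 11.997 and 12.2 in CKO sham. After IRI it measured 4.51, 5.69 and 7.70 FPKM in WT and 3.77, 8.66 and 6.46 in CKO. It was again lower in all 6 IRI libraries than in any sham library. Cdh5 fell by 0.81 in WT (SE 0.25, adjusted p = 0.025) and by 1.02 in CKO (SE 0.25, adjusted p = 0.0324).

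Icam2, an adhesion ligand of leukocyte integrins, measured 7.42, 8.30 and 9.44 FPKM in the WT sham group and 15.02, 7.99 and 9.48 in CKO sham. After IRI it measured 4.81, 4.44 and 6.83 FPKM in WT and 2.92, 7.25 and 5.82 in CKO. Its groups did not overlap in either genotype, and its average change was -0.75 (SE 0.20, adjusted p = 0.0152). Robo4, an endothelial receptor that stabilises vessels, measured 5.02, 5.45 and 5.69 FPKM in the WT sham group and 9.13, 6.48 and 4.74 in CKO sham. After IRI Robo4 measured 4.30, 2.56 and 3.14 FPKM in WT and 1.75, 5.11 and 3.06 in CKO, where CKO IRI 15 overlapped sham, and its average change was -0.73 (SE 0.20, adjusted p = 0.0164). The tight-junction members did not follow. Cldn5, the claudin of endothelial tight junctions, measured 8.62, 7.20 and 7.86 FPKM in the WT sham group and 19.1, 9.18 and 11.97 in WT IRI, and 14.9, 8.90 and 10.7 FPKM in CKO sham and 7.09, 12.1 and 7.20 in CKO IRI. All WT IRI libraries were above WT sham, while CKO libraries overlapped, and neither change passed (0.64, adjusted p = 0.0879, and -0.36, adjusted p = 0.457). In Esam, a junctional immunoglobulin-type adhesion molecule, the average change was -0.02 (SE 0.27), with sham libraries between 14.9 and 40.4 FPKM and IRI libraries between 12.6 and 36.0 FPKM.

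Of the growth factor receptors, 4 of 6 fell in the average, with a median of -0.65. Kdr, the VEGF receptor that carries most of the mitogenic VEGF signal in endothelium (chromosome 5, 75932827 to 75978458, minus strand), varied little in sham, at 12.1 ± 0.224 FPKM (SD, n = 3) in WT and 11.7 ± 0.082 FPKM (SD, n = 3) in CKO. After IRI it measured 3.64, 1.61 and 5.005 FPKM in WT and 2.40, 5.57 and 4.99 in CKO. No IRI library reached 6 FPKM. Kdr fell by 1.65 in WT (SE 0.30, adjusted p = 0.00234) and by 1.32 in CKO (SE 0.30, adjusted p = 0.0246). Flt1, the VEGF receptor that binds VEGF tightly and signals weakly, measured 11.0, 11.0 and 11.7 FPKM in WT sham, 14.7, 11.0 and 10.5 in CKO sham, 12.3, 4.59 and 7.31 in WT IRI, and 4.41, 9.54 and 7.31 in CKO IRI. WT IRI 13 was above all WT sham libraries, so the WT groups overlapped, and Flt1 passed in the average alone (-0.62, SE 0.22, adjusted p = 0.043).

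Tek, the angiopoietin receptor Tie2 (chromosome 4, 94739289 to 94874976, plus strand), measured 8.14, 8.77 and 8.11 FPKM in WT sham, 14.1, 9.99 and 9.82 in CKO sham, 3.98, 2.65 and 5.32 in WT IRI, and 2.06, 6.73 and 5.44 in CKO IRI. Every IRI library was below every sham library. Tek fell by 0.94 in WT (SE 0.32, adjusted p = 0.0382) and by 1.19 in CKO (SE 0.32, adjusted p = 0.0471). Tie1, the partner receptor of Tek, measured 12.8, 12.5 and 13.9 FPKM in WT sham, 15.9, 12.6 and 11.3 in CKO sham, 14.4, 6.49 and 9.45 in WT IRI and 3.68, 9.11 and 6.98 in CKO IRI. CKO groups were separate and WT groups overlapped through WT IRI 13, and the average change was -0.69 (SE 0.21, adjusted p = 0.0263). Ptprb, the VE-PTP phosphatase that holds Tek inactive, ranged from 2.47 to 4.47 FPKM in sham and from 0.889 to 4.64 after IRI, with an average change of -0.39 (SE 0.24, adjusted p = 0.233). Eng, the endoglin co-receptor of the BMP and TGF-beta family, changed by -0.39 (SE 0.19, adjusted p = 0.129), and its IRI median was 93.4% of its sham median, against 36.3% for Kdr.

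Of the Notch pair, Dll4, the Notch ligand of arterial and sprouting endothelium, measured 3.37, 2.91 and 3.26 FPKM in WT sham, 5.39, 4.58 and 4.67 in CKO sham, 2.63, 2.15 and 2.16 in WT IRI and 1.49, 3.20 and 1.71 in CKO IRI. Each genotype's IRI libraries were below its own sham libraries. Dll4 fell by 0.94 in CKO (SE 0.18, adjusted p = 0.0122) and in the average (-0.64, adjusted p = 0.00369), and its WT change was -0.34 (SE 0.18, adjusted p = 0.173). The CKO call was lost without CKO IRI 7, without CKO IRI 29, and with the CKO groups fitted alone (highest adjusted p 0.0734). Notch4, a Notch receptor of endothelium, measured 3.29, 3.21 and 2.62 FPKM in WT sham, 8.06, 3.08 and 3.08 in WT IRI, 5.83, 2.80 and 3.94 in CKO sham and 1.25, 1.94 and 1.22 in CKO IRI. CKO IRI was below every other library, but the CKO change of -1.04 (SE 0.31) had an adjusted p of 0.0679. Of 8 tested Notch and SOX target genes, 1 rose, Heyl (0.38, SE 0.12, adjusted p = 0.0277), and 0 fell, with a median of 0.12. In the same average 25.6% of all genes rose and 11.8% fell. Gja5 (0.33), Efnb2 (-0.11) and Hes1 (0.12) did not pass.

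Of the transcription factors 2 of 5 fell in the average, and Erg, Fli1 and Sox7 were the members of lowest sham median after Vwf. Erg, an ETS factor required for endothelial identity, measured 0.986, 1.13 and 2.64 FPKM in the WT sham group and 1.03, 0.935 and 1.16 in CKO sham. After IRI Erg measured 0.022, 0.084 and 0.030 FPKM in WT, and 0.014, 0.775 and 1.21 in CKO. All 3 WT IRI libraries and CKO IRI 7 were near 0, whereas CKO IRI 15 and 29 overlapped sham. Erg changed by -1.25 in WT (SE 0.29, adjusted p = 0.00757) and by -0.36 in CKO (SE 0.29, adjusted p = 0.477). These values rest on 2 deposited transcripts of low level, and how many reads stand behind them is unknown. Sox7, a SOXF factor, measured 1.16, 0.944 and 0.917 FPKM in WT sham, 1.58, 1.26 and 1.51 in CKO sham, 0.447, 0.677 and 0.797 in WT IRI and 0.385, 1.13 and 0.747 in CKO IRI. Its groups were separate within each genotype, with an average change of -0.40 (SE 0.12, adjusted p = 0.0245).

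The related Sox18 and the ETS factor Fli1 did not pass in the average (-0.52, adjusted p = 0.0622, and -0.27, adjusted p = 0.174). Sox17, the SOXF factor of arteries, measured 5.63, 3.59 and 4.21 FPKM in the WT sham group and 14.5, 9.05 and 5.55 in WT IRI. In CKO it measured 7.74, 7.24 and 5.08 FPKM in sham and 3.42, 9.38 and 4.24 after IRI. The library labelled WT IRI 13 was the highest, and both genotypes' groups overlapped. The Sox17 change was 0.89 in WT (SE 0.36, adjusted p = 0.0711) and -0.29 in CKO (SE 0.36, adjusted p = 0.662). Without WT IRI 49, Sox17 passed in WT (1.20, adjusted p = 0.0213), as it did with its most abundant transcript alone (1.48, adjusted p = 0.0279). Without WT IRI 24, Cldn5 did (0.86, adjusted p = 0.0414). Both changes were smaller without WT IRI 13, the highest library for each gene. They were then 0.58 for Sox17 (limma, adjusted p = 0.244) and 0.37 for Cldn5 (adjusted p = 0.296).

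Of the G protein-coupled receptors and their partners, 2 of 6 fell in the average. Adgrl4, an adhesion receptor of angiogenic endothelium, measured 13.5, 13.6 and 12.9 FPKM in WT sham, 19.7, 15.1 and 13.1 in CKO sham, 6.25, 4.95 and 9.95 in WT IRI and 5.03, 11.8 and 7.68 in CKO IRI. All IRI libraries were below all sham libraries. Adgrl4 fell by 0.88 in WT (SE 0.28, adjusted p = 0.0316), and its CKO change was -0.94 (SE 0.28, adjusted p = 0.0716). S1pr1, the sphingosine 1-phosphate receptor that tightens the endothelial barrier, measured 6.59, 6.14 and 6.81 FPKM in WT sham, 9.33, 4.73 and 4.94 in CKO sham, 3.96, 3.91 and 3.29 in WT IRI, and 3.63, 6.23 and 3.44 in CKO IRI. WT groups were separate and CKO groups overlapped, with changes of -0.67 (SE 0.24, adjusted p = 0.0488) and -0.41 (SE 0.24, adjusted p = 0.328). The WT call of S1pr1 was lost without any one of the 6 WT libraries (highest adjusted p 0.121). Adgrf5, another adhesion receptor of capillaries, did not pass (-0.41, adjusted p = 0.118).

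The adrenomedullin receptor is formed by Calcrl with Ramp2 or Ramp3, and its parts differed. Ramp2 (chromosome 11, 101246028 to 101259546, plus strand) measured 6.52, 12.04 and 13.9 FPKM in WT sham, 20.7, 10.6 and 14.8 in CKO sham, 17.6, 24.8 and 24.04 in WT IRI and 9.74, 12.5 and 11.1 in CKO IRI. WT IRI libraries were above all WT sham libraries, CKO libraries overlapped, and WT IRI was above CKO IRI. Ramp2 rose by 1.01 in WT (SE 0.28, adjusted p = 0.0172), and its CKO change was -0.39 (SE 0.28, adjusted p = 0.433). The WT call was lost without WT sham 1 (adjusted p = 0.0621) and without WT IRI 24 (adjusted p = 0.0532). With the most abundant transcript alone the change was 0.24 (adjusted p = 0.555). A shorter transcript, with 315 coding bases against 567, took at most 12.7% of Ramp2 in sham and up to 40.5% after IRI, and the remaining one was listed at 0 in every library except WT IRI 24 (4.33 FPKM) and WT IRI 49 (5.18 FPKM). Ramp2 also shares 1103 exonic bases on the same strand with the neighbouring gene Vps25, so its value is uncertain. Ramp3 measured 9.98, 8.76 and 10.3 FPKM in WT sham, 22.3, 12.7 and 9.81 in WT IRI, 13.8, 6.54 and 6.27 in CKO sham, and 4.71, 8.54 and 7.51 in CKO IRI. Groups overlapped in both genotypes, with changes of 0.50 (adjusted p = 0.253) and -0.27 (adjusted p = 0.659), and Calcrl changed by -0.34 in the average (adjusted p = 0.0973).

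Surface and fenestral proteins fell in 6 of 7, with a median of -0.61. Plvap, which forms the diaphragms of fenestrae and caveolae, measured 95.0, 87.2 and 98.1 FPKM in WT sham, 137.2, 92.2 and 92.1 in CKO sham, 54.5, 24.2 and 67.1 in WT IRI, and 16.6, 71.4 and 50.9 in CKO IRI. Every IRI library was below every sham library, but the IRI libraries of each genotype were far apart. Plvap passed in the average (-1.22, SE 0.34, adjusted p = 0.0172) and in neither genotype alone (-1.05, adjusted p = 0.11, and -1.39, adjusted p = 0.106). Emcn, the sialomucin endomucin of capillaries and veins, measured 27.9, 25.1 and 25.5 FPKM in WT sham, 58.6, 32.3 and 30.1 in CKO sham, 25.4, 11.8 and 23.2 in WT IRI and 10.8, 26.4 and 17.04 in CKO IRI. CKO sham 1 stood far above all others through transcript Emcn-201, at 32.6 FPKM there and 1.84 to 2.49 FPKM in the other sham libraries. The main transcript, Emcn-202, measured 26.0 FPKM in CKO sham 1, within its range of 22.5 to 29.5 FPKM in the other sham libraries. WT groups overlapped, and the average change of Emcn was -0.78 (SE 0.25, adjusted p = 0.0316).

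Gpihbp1, which carries lipoprotein lipase to the capillary lumen, measured 5.30, 5.17 and 7.39 FPKM in WT sham, 10.4, 7.52 and 4.54 in CKO sham, 2.19, 2.54 and 4.70 in WT IRI and 3.06, 3.29 and 3.73 in CKO IRI. IRI was below sham in both genotypes, and Gpihbp1 fell by 0.78 in WT (SE 0.28, adjusted p = 0.0477) and in the average (-0.84, adjusted p = 0.00734). Ehd3, an endocytic recycling protein enriched in glomerular endothelium, measured 10.5, 10.0 and 11.2 FPKM in WT sham, 17.5, 13.7 and 16.8 in CKO sham, 8.35, 6.10 and 8.93 in WT IRI and 6.07, 12.4 and 9.37 in CKO IRI. Its groups were separate within each genotype (average -0.59, SE 0.15, adjusted p = 0.0131). Clec14a, a C-type lectin receptor of endothelium, measured 2.80 to 3.67 FPKM in sham, 1.64, 1.03 and 2.45 in WT IRI, and 0.870, 2.79 and 2.12 in CKO IRI. Its matrix ligand Mmrn2 measured 7.11, 6.44 and 6.74 FPKM in WT sham, 10.6, 7.12 and 7.52 in CKO sham, 4.78, 3.94 and 5.78 in WT IRI and 2.60, 6.63 and 4.96 in CKO IRI. The average change was -0.61 (SE 0.18, adjusted p = 0.0239) for Clec14a and -0.59 (SE 0.18, adjusted p = 0.0234) for Mmrn2, and the pseudocount weighs more on the lower Clec14a. Rasip1, a Ras-interacting protein of vessel lumen formation, did not pass (-0.22, adjusted p = 0.311).

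No gene of vascular tone or coagulation passed. Nos3, the endothelial nitric oxide synthase, measured 2.64, 2.47 and 2.52 FPKM in WT sham, 2.94, 2.38 and 2.17 in CKO sham, 4.23, 2.67 and 2.90 in WT IRI and 1.59, 2.95 and 3.01 in CKO IRI. WT IRI lay just above WT sham, CKO overlapped, and the average change was 0.12 (SE 0.14, adjusted p = 0.536). Thbd, the anticoagulant receptor thrombomodulin, changed by -0.28 (SE 0.13, adjusted p = 0.122). Vwf, the von Willebrand factor of larger vessels, stayed under 1 FPKM in all 12 libraries, at 0.144 to 0.365 FPKM in sham, 0.783, 0.685 and 0.538 in WT IRI, and 0.245, 0.361 and 0.255 in CKO IRI. With no filter on low values it would pass in WT by limma (0.37, SE 0.11, adjusted p = 0.0229). However, every deposited row had a mean of 0.5 FPKM or more in at least 1 group. Vwf reached this in WT IRI alone (0.669 FPKM, against 0.288, 0.212 and 0.287 in WT sham, CKO sham and CKO IRI). It is thus present only through the group where it is high, and that call is no support for a rise. At this level the number of reads behind Vwf is also unknown.

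The 4 secreted factors had the lowest median change of the 8 groups of members, -1.51, and 3 of them fell. Esm1, the proteoglycan endocan secreted by VEGF-stimulated endothelium (chromosome 13, 113209659 to 113218098, plus strand), measured 18.6, 17.3 and 14.9 FPKM in the WT sham group and 16.02, 16.6 and 15.6 in CKO sham. After IRI Esm1 measured 4.02, 1.53 and 4.30 FPKM in WT and 0.815, 3.71 and 3.26 in CKO. The highest IRI library was far below the lowest sham library, and the IRI median was 21.4% of the sham median. Esm1 fell by 2.14 in WT (SE 0.36, adjusted p = 0.00163) and by 2.36 in CKO (SE 0.36, adjusted p = 0.00277). Igfbp3, an insulin-like growth factor binding protein made by peritubular endothelium (chromosome 11, 7206086 to 7213923, minus strand), measured 69.3, 85.1 and 69.6 FPKM in WT sham, 64.2, 60.1 and 84.1 in CKO sham, 33.0, 20.98 and 28.6 in WT IRI and 13.3, 26.1 and 24.8 in CKO IRI. All IRI libraries were again below all sham libraries. Igfbp3 fell by 1.42 in WT (SE 0.25, adjusted p = 0.00218) and by 1.69 in CKO (SE 0.25, adjusted p = 0.00266).

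Igfbp5, a related binding protein, measured 70.0 to 79.3 FPKM over the 6 sham libraries, 12.9, 17.3 and 49 in WT IRI and 14.9, 57.3 and 34.2 in CKO IRI. WT IRI 49 and CKO IRI 15 were the highest of their groups and still below sham. The Igfbp5 change was -1.66 in WT (SE 0.48, adjusted p = 0.0219), -1.27 in CKO (SE 0.48, adjusted p = 0.138) and -1.47 in the average (adjusted p = 0.00743). Egfl7, a secreted regulator of vessel tube formation, did not share this (-0.17, SE 0.17, adjusted p = 0.474), with sham at 16.2 to 24.2 FPKM and IRI at 11.7 to 27.1 FPKM.

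**Figure D2:**
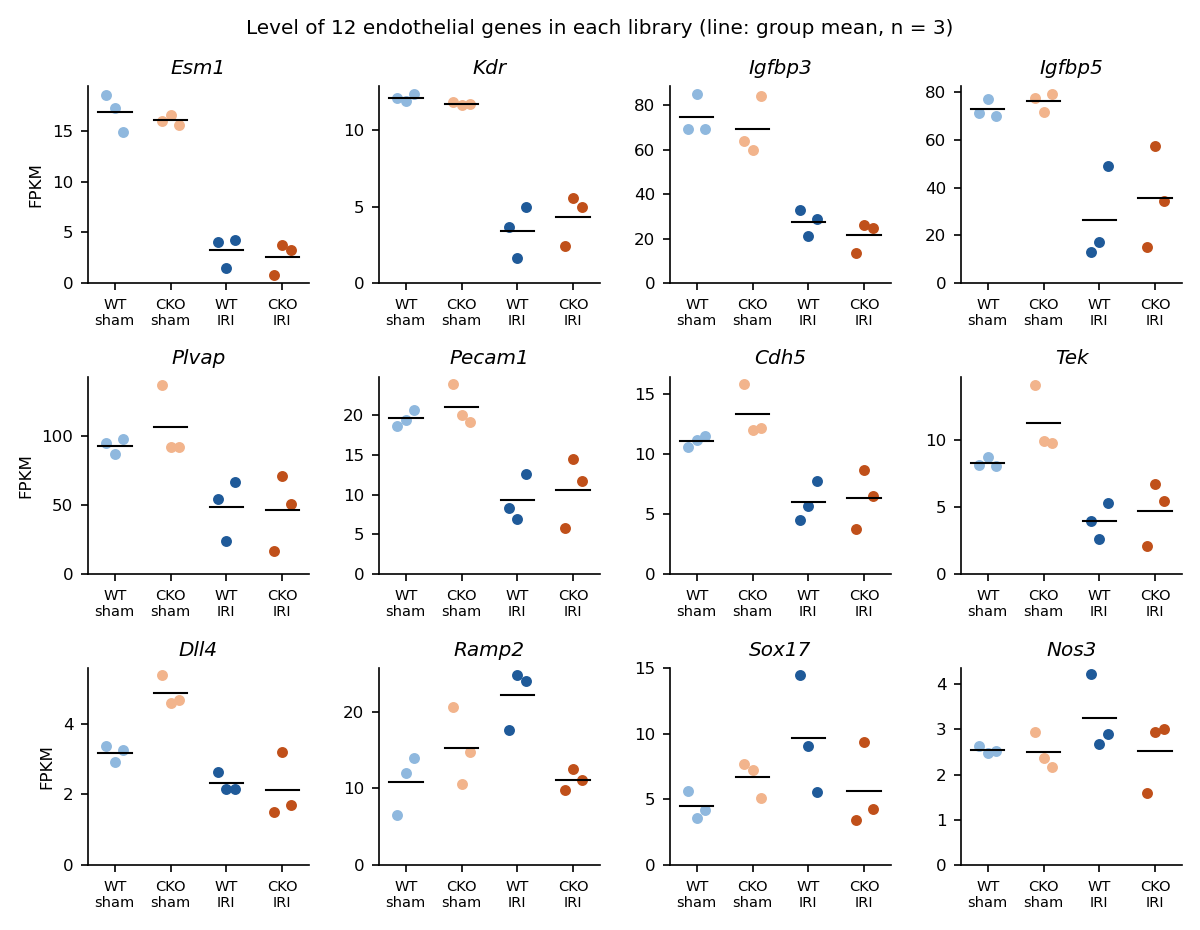
Level in FPKM of 12 endothelial genes in each library (points) with the mean of each group (line, n = 3). Esm1, Kdr, Igfbp3 and Igfbp5 are below every sham library in all 6 IRI libraries, Ramp2 is high in the 3 WT IRI libraries (17.6 to 24.8 FPKM), and Nos3 overlaps between sham and IRI.

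The injured libraries differed from one another in the depth of the fall. The 39 members summed to 567 to 578 FPKM in the WT sham group and 586 to 787 FPKM in CKO sham. After IRI they summed to 439, 282 and 438 FPKM in the libraries labelled WT IRI 13, 24 and 49, and to 204, 481 and 346 FPKM in those labelled CKO IRI 7, 15 and 29. The median difference of the members from the mean of their own genotype's sham was -0.21, -0.70 and -0.22 in WT and -1.16, -0.31 and -0.70 in CKO. CKO IRI 7 was below all CKO sham libraries for 38 of 39 members, where 27.3% of genes tested were, and it was the lowest of the 12 libraries for 28. CKO IRI 15 was below all CKO sham libraries for 24 members (22.7% of genes). In CKO IRI 7, 15 and 29 proximal tubule markers summed to 6138, 8680 and 3666 FPKM and injury markers to 5233, 2847 and 7911 FPKM. CKO IRI 15 thus had the highest sums of members and of proximal tubule markers and the lowest of injury markers, whereas CKO IRI 7, lowest for the members, lay between the others for the tubular lists. Without CKO IRI 7 the median member change in CKO was -0.46 in place of -0.75, and in the average -0.46 in place of -0.59, with 19 falls. WT IRI 13 had the lowest mitochondrial share of the 12 libraries (3.94% of FPKM, against 7.37% to 12.3% in the others). Without it the WT falls were 6 (median -0.49) and the falls in the average 22 (median -0.60).

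**Figure D3:**
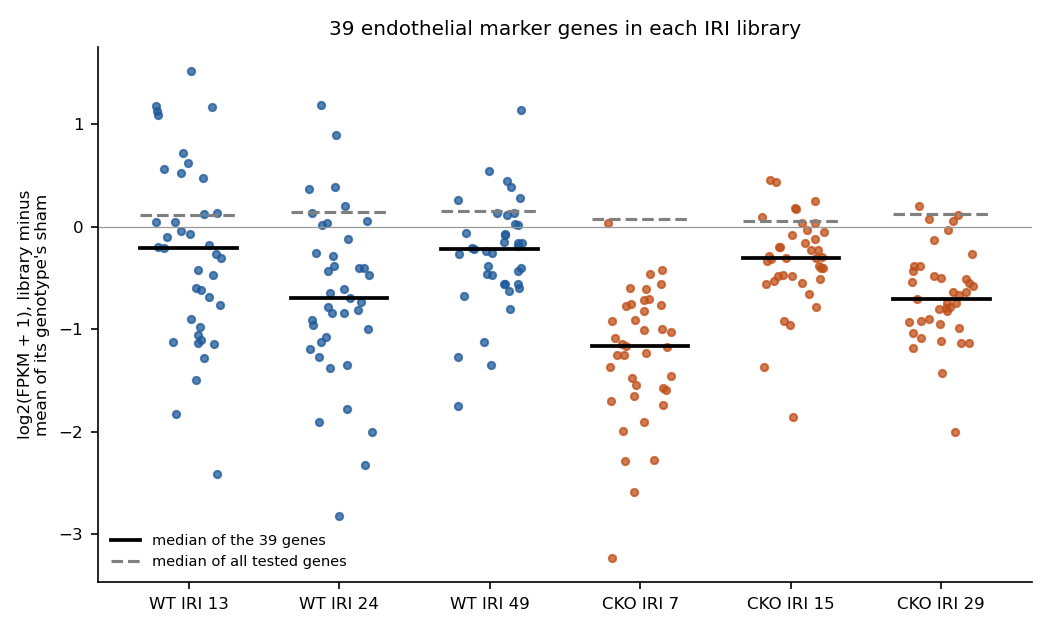
Difference of log2(FPKM + 1) between each IRI library and the mean of its own genotype's sham for the 39 endothelial markers (points), with the median of the markers (solid line) and of all tested genes (dashed line). The marker median is below the all-gene median in all 6 libraries and lowest in CKO IRI 7, at -1.16.

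Between genotypes in sham no member passed. By limma 0 of 38 were called (background 0.0882% of genes). An unadjusted p under 0.05 was found for 11 members, all higher in CKO, and for 2021 of 12469 genes in either direction. The median difference, CKO minus WT, was 0.24 against 0.01 for all genes. CKO sham libraries were above all WT sham libraries for 15 members (15% of genes) and below them for 1, Kdr (13.4%). Of the members that did not overlap, Ehd3 had the smallest p, at 15.98 ± 2.03 FPKM in CKO sham and 10.6 ± 0.572 FPKM in WT sham (SD, n = 3 each), a difference of 0.55 (SE 0.11, adjusted p = 0.232). Dll4 followed, at 4.88 ± 0.443 and 3.18 ± 0.239 FPKM (difference 0.49, SE 0.10, adjusted p = 0.232), and then Calcrl at 4.51 ± 0.544 and 2.70 ± 0.378 FPKM (difference 0.58, SE 0.13, adjusted p = 0.232). For these 3 genes all CKO sham libraries lay above all WT sham libraries. The median over the members depended on 1 library. CKO sham 1 was the highest of the 6 sham libraries for 32 of 39 members (34.4% of all genes). Among them were Esam, Plvap and, through transcript Emcn-201, Emcn. Without CKO sham 1 the median difference was 0.05. With array weights that median was 0.09. Red blood cell genes summed to 725 FPKM in CKO sham 1 and to 106 to 464 FPKM in the other sham libraries, and leukocyte markers to 99.7 and 48.3 to 81.1 FPKM. Their part in the result was not tested.

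**Figure D4:**
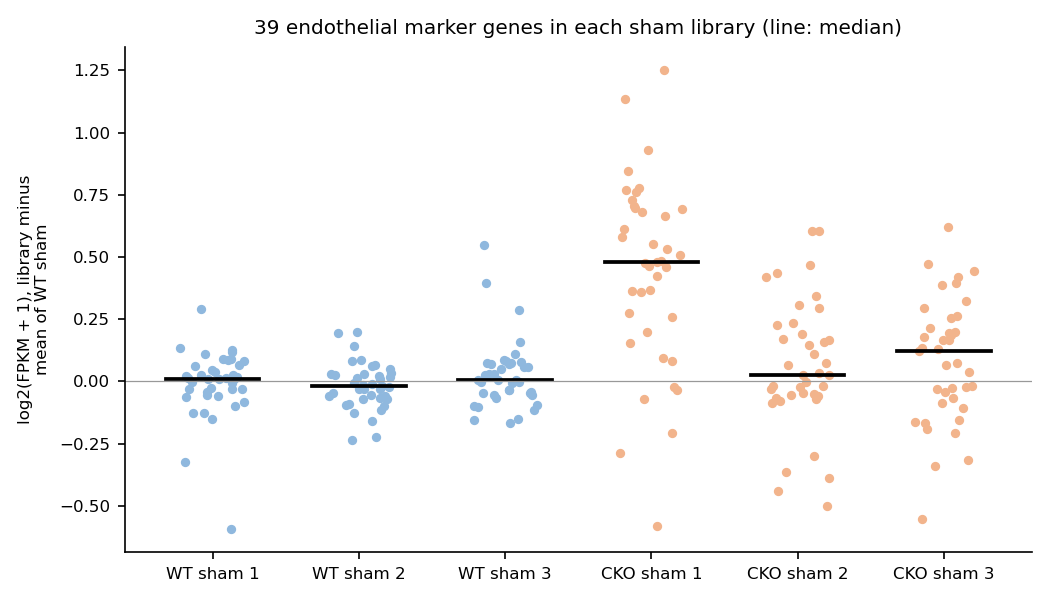
Difference of log2(FPKM + 1) between each sham library and the mean of WT sham for the 39 endothelial markers (points; line: median). CKO sham 1 is the highest of the 6 libraries for 32 of the 39 markers.

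After IRI no member differed between the libraries labelled CKO and WT (limma, 0 of 38 called, and 0% of all genes). An unadjusted p under 0.05 was found for 3 of 38 members and for 1302 of 12469 genes. The median difference, CKO minus WT, was -0.09. It was 0.16 without CKO IRI 7, 0.0018 without WT IRI 49 and -0.05 without WT IRI 13, but -0.33 without CKO IRI 15, -0.21 without WT IRI 24 and -0.25 with array weights. The 3 members were Notch4 (-1.12, SE 0.34), Ramp2 (-0.93, SE 0.19) and Ramp3 (-0.97, SE 0.33), each with an adjusted p of 0.476, and for these the libraries labelled CKO IRI were all below those labelled WT IRI. They are 3 of 38 members where 11.5% of genes did so, and 0 members were above, where 7.11% of genes were. The interaction of genotype and IRI called 0 of 38 members by limma (background 0.016%). An unadjusted p under 0.05 was found for 5 of 38 members and for 2233 of 12469 genes, so members did not exceed genes at large. The 5 members were Ramp2 (-1.40, SE 0.40, adjusted p = 0.188), Notch4 (-1.44, SE 0.44, adjusted p = 0.189), Cldn5 (-1.002, adjusted p = 0.233), Sox17 (-1.18, adjusted p = 0.26) and Dll4 (-0.61, adjusted p = 0.262). The median interaction was -0.27, against -0.06 for all genes, and depended on single libraries. It was -0.04 without CKO IRI 7 and -0.16 without CKO sham 1, but -0.50 without CKO IRI 15, -0.45 without WT IRI 24 and -0.47 with array weights. Over all genes the interaction called 494 lower and 347 higher with array weights, and 269 and 310 without WT IRI 49, with 0 members in either. Gpx3 did not follow the genotype labels after IRI, so the direction of these differences is that of the labels.

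Ligands and partners of these receptors moved in both directions: of 23 tested, 7 fell and 4 rose in the average, with a median of -0.06. Of all genes tested, 11.8% fell and 25.6% rose there. Vegfa, the ligand of Kdr and Flt1, measured 70.2 to 89.0 FPKM in sham and 47.6 to 62.7 FPKM after IRI, and fell (-0.41, SE 0.09, adjusted p = 0.00541). Angpt1, the activating ligand of Tek, measured 1.82 to 3.70 FPKM in sham and 1.36 to 2.64 FPKM after IRI, and fell (-0.61, SE 0.15, adjusted p = 0.0111). Angpt2, its competing ligand, did not pass (-0.43, SE 0.39, adjusted p = 0.411). Apln, the secreted ligand of the apelin receptor, fell from 7.80 to 10.9 FPKM in sham to 0.909 to 3.75 FPKM after IRI (-1.74, SE 0.20, adjusted p = 0.000146), and its receptor Aplnr fell by 1.09 (SE 0.19, adjusted p = 0.00169). Lpl, the lipase that Gpihbp1 holds, fell by 2.08 (SE 0.37, adjusted p = 0.00186), and Slit2, a ligand of roundabout receptors, by 0.79 (SE 0.16, adjusted p = 0.00407). Angptl2 was the other fall, and Sphk1, Angptl4, Jag1 and Adm rose. Of the 26 genes on this list 24 were in the table. Gdf2 and Bmp10 had no matched transcript there, and Pgf was too low to test.

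The list named endothelial activation went the other way: 8 of 12 tested rose and 0 fell (median 1.01). It is a mixed list, as it also holds Klf2, Klf4, Procr, Cd34 and Cd93, which are not markers of activation alone. By limma none of the 12 was lower at an unadjusted p under 0.05. For this list and the next, the background was 25.6% of genes risen and 11.8% fallen. Lrg1, a secreted modulator of TGF-beta signalling, measured 1.04 to 2.21 FPKM in sham and 9.04 to 26.0 FPKM after IRI (2.63, SE 0.28, adjusted p = 7.44e-05). Icam1 (1.03, adjusted p = 8.55e-05) and Vcam1 (2.16, adjusted p = 0.000202), receptors for leukocyte integrins, and Edn1, the vasoconstrictor endothelin 1 (1.77, adjusted p = 0.000235), also rose, and Klf4, Ccl2 and Procr were among the others that did. Epithelial cells and other cells also express several of these, and Vcam1 is on the tubular injury list too. Of the 15 genes on this activation list 12 were in the table, and the selectins Sele and Selp had no matched transcript there. Of 26 other endothelial genes, 10 fell and 3 rose (median -0.37), among them the transcription factor Meox1 (-0.99, SE 0.18, adjusted p = 0.00186), the hypoxia-inducible factor Epas1 (-0.51, SE 0.11, adjusted p = 0.00512), Shank3 (-0.70, adjusted p = 0.00845) and the ETS factor Ets2, which rose (0.34, adjusted p = 0.0099).

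By vessel type, again where 11.8% of all genes fell and 25.6% rose, peritubular capillary genes fell in 5 of 6 (median -1.13). Plvap, Igfbp3 and Igfbp5 are among these, and the others were Npr3, a natriuretic peptide clearance receptor (-1.05, SE 0.18, adjusted p = 0.00132), and Plpp1. The cell source of the Npr3 and Plpp1 RNA was not tested, so their falls cannot be assigned to these capillaries. Glomerular endothelial genes fell in 2 of 6 (Lpl and Ehd3) and rose in 1, Plat, the tissue plasminogen activator (1.49, SE 0.24, adjusted p = 0.00102). Lpl measured 152 to 446 FPKM in sham, against 10.0 to 17.5 FPKM for Ehd3. Which cells the Lpl RNA came from was not tested, so its fall cannot be assigned to glomerular endothelium. Arterial genes fell in 0 of 7, by limma, with 0 lower at an unadjusted p under 0.05, and 1 rose, Edn1 (median 0.15). Of 5 lymphatic genes 2 fell, Flt4 among them (-0.60, SE 0.15, adjusted p = 0.00919), and Pdpn rose (0.93, SE 0.13, adjusted p = 0.000417), which podocytes also express. The difference between these lists was not tested.

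Other vascular and blood cell lists follow, where 11.8% of all genes fell and 25.6% rose. Pericyte, mesangial and smooth muscle genes rose in 5 of 15 and fell in 0 (median 0.18), led by Tagln (1.47, adjusted p = 0.000844) and Acta2 (1.22, adjusted p = 0.0015), contractile proteins of smooth muscle. In sham their summed level was 139 to 186 FPKM for WT and 207 to 243 FPKM for CKO, and after IRI it was 160 to 298 FPKM for WT and 155 to 351 FPKM for CKO. Podocyte markers fell in 4 of 13 and rose in 1 (median -0.34), and summed to 158 to 201 FPKM in sham and 122 to 183 FPKM after IRI. Platelet genes, of which 4 of 8 were in the table, summed to 2.22 to 7.13 FPKM in sham and 4.90 to 30.4 FPKM after IRI, the highest being WT IRI 13, with Pf4 at 25.3 FPKM. Leukocyte markers (9 of 15 in the table) rose in 5 of 8 tested, led by S100a9 (2.18, adjusted p = 7.44e-05), and summed to 48.3 to 99.7 FPKM in sham and 74.9 to 171 FPKM after IRI. Red blood cell genes (5 of 6) did not pass (0 of 4 tested, median -1.73, with 3 at an unadjusted p under 0.05, all lower) and summed to 106 to 725 FPKM in sham and 24.8 to 548 FPKM after IRI. The part of these cells in the endothelial results was not tested.

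**Figure D5:**
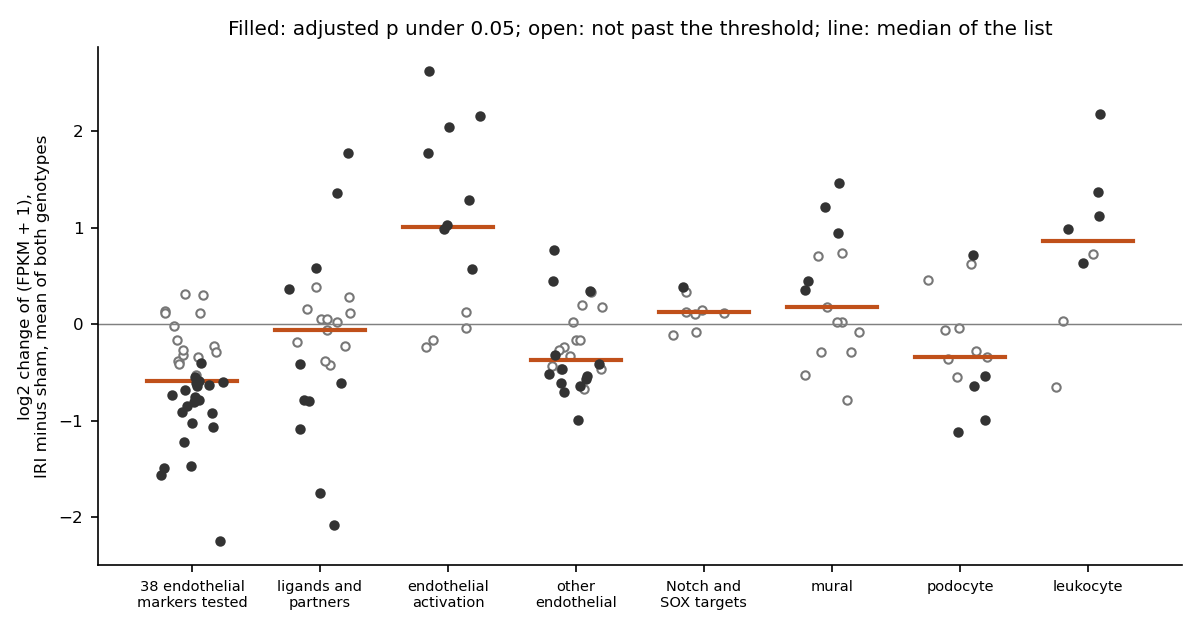
Log2 change of (FPKM + 1), IRI minus sham averaged over both genotypes, of the tested genes of 8 lists (points; filled: adjusted p under 0.05) with the median of each list (line). The 38 tested endothelial markers have a median of -0.59, and the mixed list named endothelial activation one of 1.01.

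Single transcripts showed further differences that gene sums hide. Flt1 was split between a transcript with 3999 coding bases and a shorter one with 2064, and the latter took 28.97% to 34.4% of the gene in sham and 24.8% to 29.4% after IRI. Pecam1-207 took 17.1% to 26.0% of Pecam1 in sham and was listed at 0 in 4 of the 6 IRI libraries. Eng moved between Eng-205 and Eng-201, whose coding lengths are close (1956 and 1959 bases): Eng-205 took 49.7% to 59.4% of the gene in sham and 8.57% to 67.3% after IRI. The Tie1 transcript with the longer coding sequence (3402 bases against 1941) had a median share of 49.6% in sham and 86.7% after IRI. The assembler assigns reads shared by transcripts, so these shares are estimates, and they were not tested. Across the 38 tested members, the WT change correlated with the GC content of the main transcript at a Spearman rho of 0.48 (0.15 over 12459 genes), and the CKO change at 0.20 (-0.03). Length gave -0.21 (-0.17) and -0.16 (0.07). These are descriptions across genes that share libraries.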

How the data were processed

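The authors deposited 1 table of 25790 transcripts by 12 libraries, read here as FPKM; the header names no unit, and StringTie can also write TPM. Tools named per the submitters' processing notes include cutadapt, HISAT2 2.1.0 and StringTie, and they name the build GRCh38 although the identifiers are mouse. Per the labels' protocols, libraries were strand-marked with dUTP. Each row's mean was 0.5 FPKM or more in at least 1 group, so rarer transcripts are missing from gene sums. Identifiers were matched to GENCODE M21 (GRCm38), 25740 in all, and summed per gene. The 50 unmatched held at most 0.103% of a library.

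The 12469 genes (38 of them members) that reached 1 FPKM in 3 or more libraries were fitted with limma 3.58.1 (R 4.3.3) on log2(FPKM + 1) with a mean-variance trend. The pseudocount of 1 understates changes of low genes. IRI comparisons and the interaction used all 12 libraries with a shared spread, and each genotype comparison only its 6 libraries. Tests were two-sided, with Benjamini-Hochberg adjustment over all genes tested and a threshold of 0.05. The 2 within-genotype comparisons and their average share libraries. The fit was tested on simulated data, with noise drawn separately for each gene and library. That check could not show the effect of a library that shifts many genes together. Alternatives were another pseudocount, other filters, quantile and TMM scaling (a trimmed mean of log ratios, unweighted since there are no counts), the most abundant transcript, array weights, other libraries in the fit, a replicate block in sham and leaving out each library.

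The members and gene lists were chosen with earlier results of these data known. Named in full are members that passed in any comparison and the 5 largest rises and 5 largest falls in the average, and in each other list up to 4 genes of smallest p, with Gpx3, Vegfa, Angpt1 and Angpt2. Genes counted as passing but outside that rule were named after their values were seen.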

Additional observations from a re-analysis of the deposited data

How the results depend on the processing

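The number of members that fell in the average of both genotypes stayed within 1.5 times of 22 under every alternative (18 to 28) and without each library (16 to 23), and no called change of a named member reversed. With no filter on low values 1 member, Vwf, rose there, and 2 rose in WT (Ramp2 and Vwf, in place of Ramp2 alone). Vwf is in the deposited data only through its WT IRI mean, so its calls are no support for a rise. In WT the 11 falls became 6 with the most abundant transcript of each gene, and lay between 4 and 11 without each library. The rise in WT lay between 0 and 2. In CKO the 6 falls became 29 with array weights (10.2% of all genes fell, against 1.48%) and 3 with only the CKO groups fitted (0.826%), and lay between 2 and 18 without each library (0.58% and 3.01% of all genes). Both genotype comparisons and the interaction called 0 members under every alternative and without each library, also where array weights or leaving out WT IRI 49 called many more genes in the interaction. Replicate numbers were shared by the sham groups alone, and deviations of same-numbered libraries did not correlate (r 0.004, -0.031 and -0.002). Such correlations could miss a shared effect smaller than the scatter among libraries, so whether the numbers pair the samples is unknown. With a replicate block 0 members were called. Read depth is unknown, so the precision of low members such as Erg, Sox7 and Vwf cannot be given, and 6211 transcripts were listed at 0 in some library. When 1 library is left out of a group, the fit assumes that the group varies like the others.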
